A study of Mus musculus with 8 samples.

Results

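Gpr85, Gpr27, Gpr173 and Gpr26 are 4 genes for orphan G protein-coupled receptors of the brain, measured here among 21451 gene symbols in the cortex of mouse embryos. They were taken by name, as every probe set annotated to exactly 1 of these symbols, which gave 31 probe sets: 12 for Gpr85, 7 for Gpr27, 6 for Gpr173 and 6 for Gpr26. They were chosen with the difference between wild type and Ptbp2 knockout cortex already known, namely the gene value of Gpr26 and a single probe set of Gpr85. Values of that comparison in the 4 genes are therefore a description with no p. How many of them passed a limit set over all genes or probe sets is counted beside the share of all that did. A closing section repeats the count of probe sets under other settings. RNA came from the cortex at embryonic day 18.5, on a mixed CD1 and C57BL/6 background, with 4 wild type embryos and 4 embryos labelled as knockout for Ptbp2, a neuronal RNA-binding repressor of alternative exons. Each embryo had its own Affymetrix exon array, on which several short probe sets report different stretches of a gene. The sources used here do not give the knockout allele or the part of the cortex taken.

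Orphan receptors are membrane proteins built like known hormone and transmitter receptors for which no natural ligand is firmly established. Gpr27, Gpr85 and Gpr173 form the SREB family, named as super-conserved receptors expressed in brain because their proteins changed very little during vertebrate evolution. Gpr85 is its most conserved member and is abundant in developing and adult brain, including the hippocampus. Gpr26 belongs to another branch and is known to raise cyclic AMP through stimulatory G proteins without added ligand. Such receptors signal through heterotrimeric G proteins, adenylyl cyclases and phosphodiesterases, and are switched off by receptor kinases, arrestins and RGS proteins.

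The start of 2 of the 4 genes could be shown from RefSeq sequences of build GRCm38.p6, and no result below was tied to these sequences. The 250 bases before the annotated start are given 5′ to 3′ on the strand of the gene, and capitals mark CCAAT or its complement ATTGG. Gpr85 lies at chr6:13839943-13840192 and Gpr173 at chrX:152368719-152368968, both on the minus strand.
Gpr85: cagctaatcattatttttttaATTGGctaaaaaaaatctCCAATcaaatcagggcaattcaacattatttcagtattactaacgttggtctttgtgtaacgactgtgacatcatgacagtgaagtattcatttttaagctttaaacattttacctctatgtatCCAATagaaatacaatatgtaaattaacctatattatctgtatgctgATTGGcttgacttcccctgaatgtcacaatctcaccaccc
Gpr173: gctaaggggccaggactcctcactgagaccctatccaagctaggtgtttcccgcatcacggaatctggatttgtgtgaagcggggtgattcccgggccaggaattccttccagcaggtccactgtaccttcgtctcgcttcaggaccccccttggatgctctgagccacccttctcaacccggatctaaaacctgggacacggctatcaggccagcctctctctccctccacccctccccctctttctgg

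Both relatives start in unlike surroundings. The Gpr85 stretch is rich in A and T, with 32% G and C and 2 CpG pairs, and 2.60% of 32851 mouse promoters of this length had as little G and C. The Gpr173 stretch has 58.8% G and C and 8 CpG pairs, against medians of 52.4% and 6 over all promoters. Gpr85 holds 4 matches to CCAAT on either strand, a number reached by 0.84% of promoters, while Gpr173 holds 0 and 33.8% of all promoters hold at least 1. Neither stretch matches TATAAA (found in 12.4% of promoters), the cyclic AMP response element TGACGTCA (1.55%), its half-site TGACG (17.8%) or the E-box CANNTG (66.2%), searched on both strands. TGACG also lies within TGACGTCA. These are letter matches and not measured binding sites.

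The arrays had median log2 signals between 6.82 and 6.93, and their number limits the precision of each value. Ptbp2 served as the check of the labels, with a gene value of 11.20 ± 0.14 in wild type and 5.95 ± 0.34 in knockout cortex (SD, n = 4 each). Of 9 markers of cortical neurons tested, 5 had higher and 4 lower knockout means and 0 were called. Neurod6 lay between 11.29 and 11.68 on all 8 arrays, Fezf2 differed by 0.23 and Tbr1 by -0.20. Slc17a7, a glutamate transporter of excitatory synapses, was lower on every knockout array (difference -0.49, SE 0.13, limma adjusted p = 0.36). Wild type 3 stood apart from the other arrays on the first principal component and knockout 3 on the second, and receptor gene values are also given without both where that moved their difference by over 1.5 times. Of the markers of other cell types, the 7 microglial genes tested were all higher in knockout cortex, and their mean signal per array lay between 7.81 and 8.07 in wild type and between 8.14 and 8.33 in knockout cortex. None of the 7 passed the limma test. Of 19 markers for striatum, hippocampus or thalamus, 14 had lower and 5 higher knockout means, with mean signals of 8.64 to 8.79 and 8.33 to 8.75. The groups did not overlap in 5, all lower (26.3%, against 3.65% of all genes). At an unadjusted limma p under 0.05, 8 were lower and 0 higher, against 3.79% and 2.70% of all genes (6.49% in either direction). None of the 19 was called. Tac1 differed by -0.75 (limma adjusted p = 0.095), Ppp1r1b by -0.48 (limma adjusted p = 0.085), Penk by -0.47 and Ikzf1 by -0.37. Choroid plexus genes were lower in 9 of 9, with mean signals of 8.54 to 8.69 and 7.38 to 8.80, but this rested on knockout 2, without which 4 were lower and 5 higher. Ttr, the transthyretin of the choroid plexus, was at 9.36 in knockout 2 and at 13.18 to 13.38 on the other 7 arrays. Without knockout 2 the Gpr26 gene value differed by 0.65 and the relative signal of the Gpr85 probe set described below by 1.98. Interneuron genes were lower in 12 of 15, glial genes lower in 10 of 11, progenitor genes higher in 10 of 13 (5 of 13 without wild type 3), and genes of vessels, meninges and blood higher in 7 of 9, with 0 called in each list. The part of these cells in the receptor values was not tested. In whole cortex RNA, fewer cells of a type and less RNA per cell cannot be told apart.

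Probe sets entered a gene value when their 8-array mean was at least 6.84, the median log2 signal of the table, and 30 of the 31 did. The value of a gene on an array was the median of its retained probe sets. Probe sets differ in binding strength, so levels of different genes or probe sets are not set against each other.

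Gpr85 had about the same gene value in both groups. It was 10.08, 9.95, 9.72 and 9.89 in wild type 1 to 4 and 10.17, 9.97, 9.97 and 9.94 in knockout 1 to 4. The groups overlapped, and the means of 9.91 ± 0.15 and 10.01 ± 0.11 (SD, n = 4 each) differed by 0.11 (SE 0.10) on the log2 scale. Within wild type, array 3 was the lowest in 10 of the 11 retained probe sets and array 1 the highest in 9. Without wild type 3 the difference was 0.041, without knockout 1 it was 0.052, and without wild type 1 it was 0.16. It was 0.056 without both wild type 3 and knockout 3 and 0.23 as a mean of the probe sets.

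**Figure D1:**
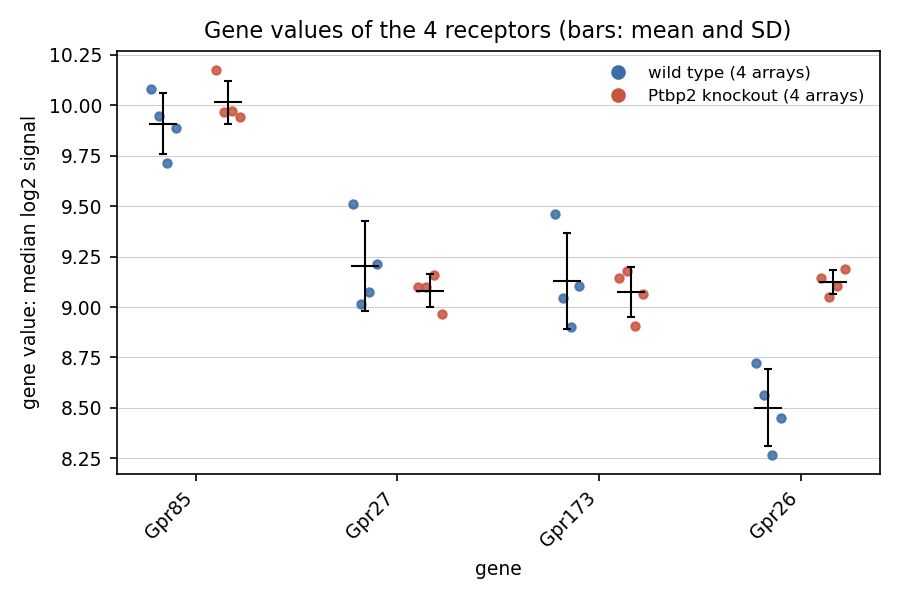
Gene values of the 4 receptors, the median log2 signal of the retained probe sets (vertical axis), for 4 wild type and 4 knockout arrays (points), with mean and SD as bars. The groups overlap in Gpr85, Gpr27 and Gpr173, while in Gpr26 the wild type arrays (8.27 to 8.72) lie below the knockout arrays (9.05 to 9.19).

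A single Gpr85 probe set stood out from the rest of its gene. Probe set 5217176 was at 9.18, 8.88, 8.24 and 8.84 in wild type 1 to 4 and at 10.86, 11.00, 10.86 and 10.72 in knockout 1 to 4. The groups were separated by 1.54 on the log2 scale, a gap wider than the range of either group. Its mean went from 8.79 ± 0.39 to 10.86 ± 0.12 (SD, n = 4 each), a difference of 2.07 (SE 0.18), or 4.21-fold on the scale of the signal. Among 204314 retained probe sets with 1 gene symbol it had the third largest positive difference. Among 195604 probe sets set against the others of their gene (limma diffSplice), its relative difference of 2.03 was the second largest positive one.

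The remaining retained Gpr85 probe sets did not share this difference. Their median was 10.16, 9.98, 9.75 and 9.94 in wild type 1 to 4 and 10.13, 9.94, 9.94 and 9.92 in knockout 1 to 4, a difference of 0.022. Set against that median, 5217176 lay at -0.99, -1.10, -1.51 and -1.10 in wild type 1 to 4, with every array below 0. In knockout 1 to 4 it lay at 0.72, 1.06, 0.92 and 0.80, with every array above 0. The offset itself includes how strongly the probes bind, so only its shift of 2.05 between the groups compares the samples. Of all settings and left-out arrays tried, its relative difference was smallest as a deviation from the gene mean (1.85) and largest without wild type 1 (2.11).

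Another Gpr85 probe set was lower in knockout cortex. Probe set 4715687 was at 10.08, 9.86, 9.72 and 10.00 in wild type 1 to 4 and at 9.61, 9.57, 9.47 and 9.43 in knockout 1 to 4. Every knockout array lay below every wild type array, by a gap of 0.11. The means of 9.91 ± 0.16 and 9.52 ± 0.08 differed by -0.39 (SE 0.12), and by -0.68 relative to the other probe sets, a mean that includes the raised one. Against the gene median the relative difference was -0.50, although in wild type 1 and wild type 3 that median was the value of 4715687 itself.

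The other 9 retained Gpr85 probe sets overlapped between the groups, with differences between -0.0039 and 0.20. The largest was that of 5173963, at 11.73 ± 0.17 and 11.93 ± 0.10, followed by 4607871, at 12.13 ± 0.13 and 12.28 ± 0.06 (SD, n = 4 each). Probe set 5210532 ranged from 9.62 to 9.67 in wild type and from 9.56 to 9.80 in knockout cortex. The twelfth probe set, 4661840, did not pass the signal filter, with 3.14 to 3.87 in wild type and 3.74 to 4.23 in knockout cortex. Its groups overlapped, with a difference of 0.62 at these low signals.

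**Figure D2:**
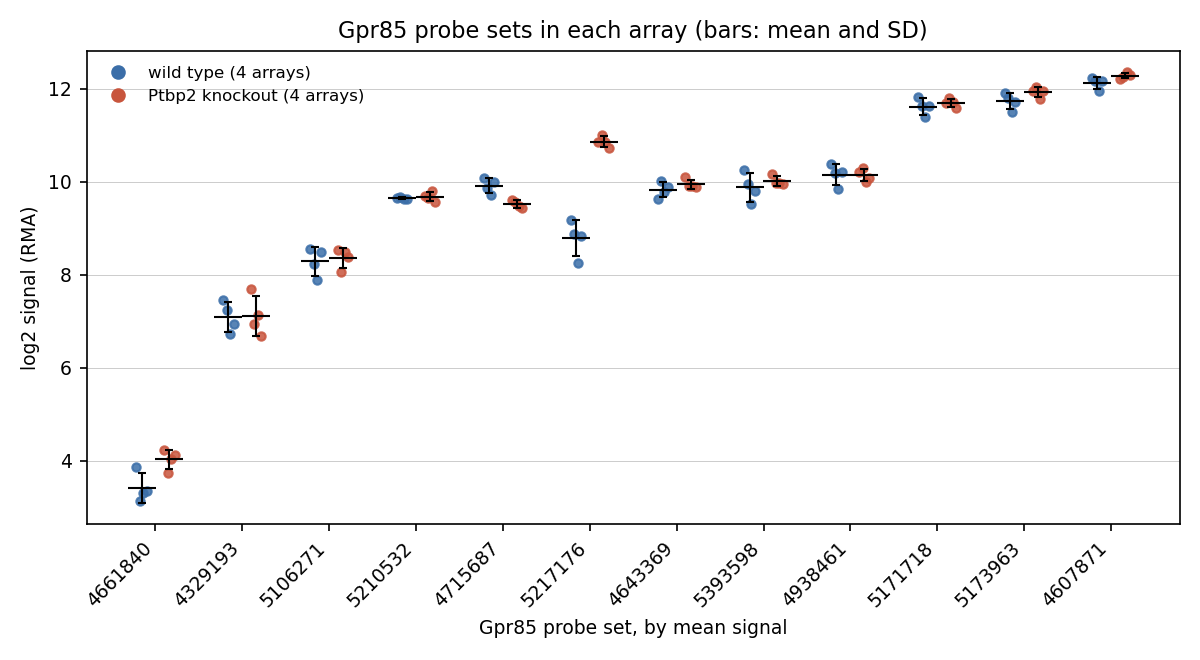
Log2 signal (vertical axis) of each Gpr85 probe set, ordered by mean signal, in 4 wild type and 4 knockout arrays (points) with mean and SD as bars. The knockout arrays of 5217176 lie between 10.72 and 11.00 and its wild type arrays between 8.24 and 9.18, while 4715687 shows the opposite order with a small gap.

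Gpr26 was the receptor with separated gene values. They were 8.72, 8.56, 8.27 and 8.45 in wild type 1 to 4 and 9.15, 9.05, 9.10 and 9.19 in knockout 1 to 4. The lowest knockout array lay above the highest wild type array. The means of 8.50 ± 0.19 and 9.12 ± 0.06 (SD, n = 4 each) differed by 0.62 (SE 0.10), or 1.54-fold.

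This gene value hides probe sets that go opposite ways. Of the 6 Gpr26 probe sets, 3 had higher and 3 had lower means in knockout cortex, and the smallest difference was -0.34.

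Probe set 4449558 was at 8.42, 8.24, 8.17 and 8.16 in wild type 1 to 4 and at 9.14, 9.16, 8.97 and 9.30 in knockout 1 to 4. Probe set 4390610 was at 10.41, 10.43, 9.83 and 10.08 in wild type and at 11.11, 10.94, 11.15 and 11.10 in knockout cortex. In both, all knockout arrays lay above all wild type arrays, with differences of 0.90 (SE 0.12) and 0.89 (SE 0.15). Probe set 5607789 was at 8.94, 8.89, 8.36 and 8.71 in wild type and at 9.43, 8.94, 9.24 and 9.17 in knockout cortex, a difference of 0.47 (SE 0.15). There wild type 1 and knockout 2 met at 8.94, so the groups just overlapped.

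Probe set 4577739 went the other way, at 9.66, 9.57, 9.81 and 9.77 in wild type 1 to 4 and at 9.15, 9.26, 9.48 and 9.21 in knockout 1 to 4. Probe set 5596780 was at 8.50, 7.88, 7.90 and 8.19 in wild type and at 7.66, 7.38, 7.84 and 7.72 in knockout cortex. In both, all knockout arrays lay below all wild type arrays, by gaps of 0.087 and 0.037, with differences of -0.43 (SE 0.12) and -0.47 (SE 0.16). Probe set 4978800 was at 8.20, 7.68, 7.21 and 7.73 in wild type and at 7.27, 7.48, 7.54 and 7.19 in knockout cortex. Its groups overlapped, with a difference of -0.34 (SE 0.19) that was -0.17 without wild type 1 and -0.56 without wild type 3 and knockout 3.

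**Figure D3:**
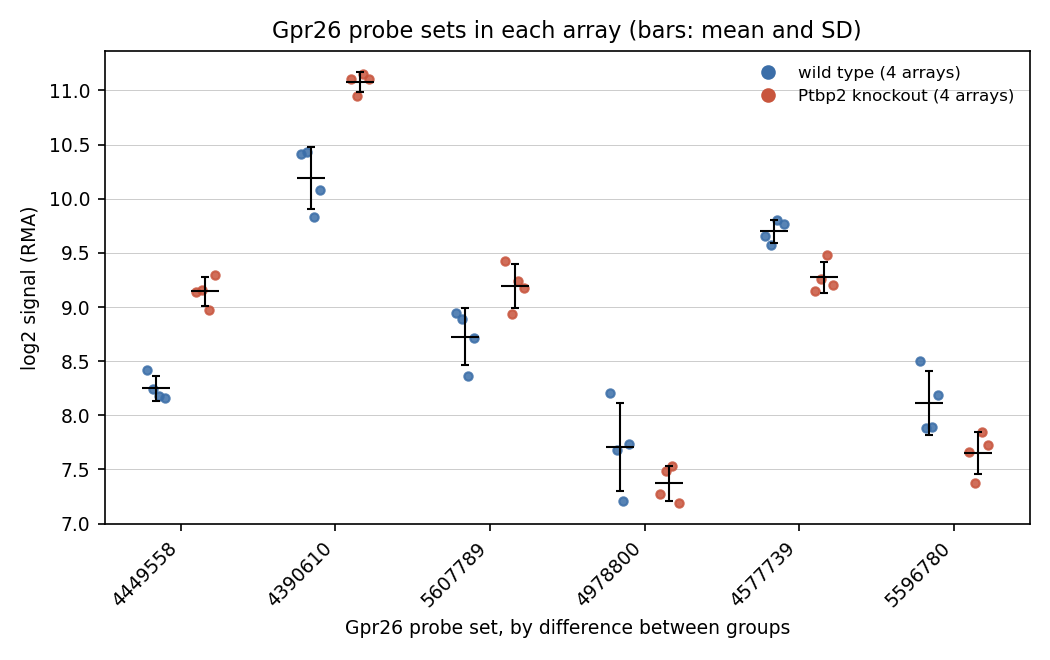
Log2 signal (vertical axis) of the 6 Gpr26 probe sets, ordered by the difference between groups, in 4 wild type and 4 knockout arrays (points) with mean and SD as bars. The 3 probe sets on the left are higher in knockout cortex, by 0.90, 0.89 and 0.47, and the 3 on the right lower, by -0.34, -0.43 and -0.47.

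The higher and lower probe sets were also set against each other as a contrast within the gene. The mean of the 3 higher probe sets minus that of the 3 lower ones was 0.47, 0.81, 0.48 and 0.42 in wild type 1 to 4 and 1.86, 1.64, 1.50 and 1.82 in knockout 1 to 4. The averages of 0.55 ± 0.18 and 1.71 ± 0.17 (SD, n = 4 each) differed by 1.16. The sides were formed after the differences had been seen, by the sign of each probe set's difference between the groups. A separation of this contrast was therefore built in, and its size is a description. The mean of all 6 probe sets was 9.02, 8.78, 8.55 and 8.77 in wild type and 8.96, 8.86, 9.04 and 8.95 in knockout cortex, where wild type 1 lay above 3 knockout arrays and the difference was 0.17.

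The gene value of Gpr26 depended on which probe sets supplied the middle values. A median of 6 values is the average of the third lowest and the next one up. In wild type 1 and 4 the third lowest was 5596780, a probe set of the lower side, and in wild type 2 and 3 it was 4449558. In knockout cortex it was 4449558 or 5607789, both of the higher side, on every array. The next one up was 5607789 on every wild type array. In knockout 1 and 4 the next one up was 4577739, of the lower side. In knockout 2 and 3 it was 4449558 and 5607789. With 1 probe set left out, an alternative added after the data were seen, the difference ranged from 0.40 without 4449558 to 0.84 without 5607789. With the signal filter at the 75th percentile, which kept 4 of the 6, it was 0.065.

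Such opposed probe sets were rare among the genes measured. Gpr26 had 2 retained probe sets higher and 2 lower without overlap between groups, as did or exceeded 0.1% of the 12960 genes tested. Among genes with 4 to 8 retained probe sets the share was 0.0483%, which is Gpr26 and Lemd1. This criterion was also set after the values of Gpr26 had been seen.

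Gpr27, an SREB receptor also known from insulin-producing cells, was close to level. Its gene value was 9.51, 9.02, 9.07 and 9.21 in wild type 1 to 4 and 9.10, 9.10, 9.16 and 8.97 in knockout 1 to 4. Wild type 1 was the highest array and the groups overlapped, with means of 9.20 ± 0.22 and 9.08 ± 0.08 (SD, n = 4 each) and a difference of -0.12 (SE 0.11). Without wild type 1 the difference was -0.020, without wild type 2 it was -0.18, and without both wild type 3 and knockout 3 it was -0.19. As a mean of the probe sets it was -0.044, and at the 75th percentile filter it turned to 0.0025. The 7 probe sets differed by -0.12 to 0.070, 5 of them lower and 2 higher in knockout cortex. On every array the median was the value of probe set 4847411. The gene difference of -0.12 is therefore that of this probe set, the lowest of the 7. Probe set 4412876 had tight groups, at 10.59, 10.60, 10.69 and 10.58 in wild type and 10.52, 10.49, 10.55 and 10.44 in knockout cortex, and these did not overlap although they differed by only -0.11 (SE 0.10). Gpr27 overlaps Eif4e3, a cap-binding protein gene, in the RefSeq order. Eif4e3 had a gene value of 9.14 ± 0.13 and 9.04 ± 0.11, a difference of -0.096 (SE 0.097, limma adjusted p = 0.93) that turned to 0.050 with the filter at the 75th percentile.

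Gpr173, the X-linked SREB receptor that has been proposed to respond to the peptide phoenixin, was level as well. Its gene value was 9.46, 9.04, 8.90 and 9.10 in wild type 1 to 4 and 9.14, 9.18, 8.91 and 9.07 in knockout 1 to 4. Array 3 was the lowest in both groups and the groups overlapped, with means of 9.13 ± 0.24 and 9.07 ± 0.12 (SD, n = 4 each) and a difference of -0.053 (SE 0.12). The sign turned without wild type 1 (0.058) and without knockout 3 (0.0028), and without wild type 3 the difference was -0.13. With the Xist level of each array as a covariate, which stands for the sex of the embryo, the difference was -0.056. Its 6 probe sets differed by -0.28 to 0.13, 3 in each direction, and all overlapped between groups. The lowest was 4387967, at 10.11, 9.32, 9.36 and 9.78 in wild type and 9.51, 9.44, 9.18 and 9.31 in knockout cortex.

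Next to this level receptor lies a transcript that was not level. The long noncoding RNA gene 3010001F23Rik overlaps Gpr173 in RefSeq. Its probe set 4411258 was at 9.15, 9.05, 9.09 and 9.28 in wild type 1 to 4 and at 7.63, 7.50, 7.97 and 7.64 in knockout 1 to 4. The groups did not overlap, and the difference was -1.46. Probe set 4411258 passed the limma test over all probe sets and, relative to the others of its gene, diffSplice. Probe sets 4461555 and 4604281 of that gene differed by -1.32 and -1.51 without overlap, although both were below the signal filter. The other 3 differed by -0.10 to -0.019 and overlapped. As a gene, 3010001F23Rik had 4 retained probe sets and overlapping groups. Its value went from 8.23 ± 0.17 to 7.83 ± 0.12, a difference of -0.40 (SE 0.10, limma adjusted p = 0.33). It was -0.20 with no signal filter (limma adjusted p = 0.84), while with array weights it was -0.51 and passed the test (limma adjusted p = 0.0081). Which strand a probe set reads was not used here, so reads of overlapping genes cannot be assigned by strand.

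**Figure D4:**
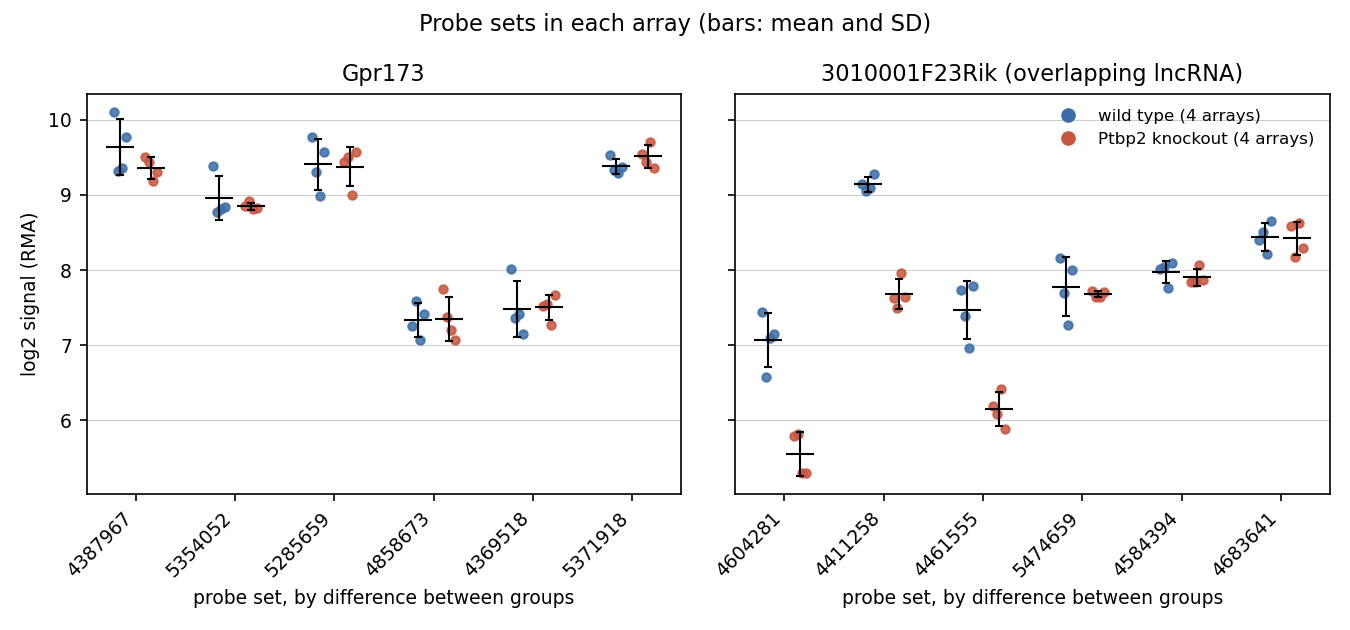
Log2 signal (vertical axis) of the 6 Gpr173 probe sets (left) and the 6 probe sets of the overlapping noncoding gene 3010001F23Rik (right) in 4 wild type and 4 knockout arrays (points), with mean and SD as bars. The Gpr173 groups overlap throughout, while 3 probe sets of 3010001F23Rik are lower in knockout cortex, by -1.51, -1.46 and -1.32.

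Over all 4 receptors, 17 of the 30 retained probe sets had higher and 13 lower means in knockout cortex. The groups did not overlap in 7 of them, 3 higher and 4 lower, against 3.76% of all retained probe sets with 1 symbol (1.97% higher and 1.79% lower). At the level of single probe sets, 2 passed the limma test at an adjusted p of 0.05, Gpr85 5217176 and Gpr26 4449558, against 0.0921% of all retained probe sets. Both were higher, as were 0.0617% of all, while 0.0304% were called lower. Relative to the rest of their gene, 5 passed in diffSplice, against 0.212% of all probe sets tested. The 3 with a positive relative difference were Gpr85 5217176 and Gpr26 4390610 and 4449558 (0.0879% of all), and the 2 with a negative one were Gpr85 4715687 and Gpr26 5596780 (0.124% of all). The splicing index, the signal of a probe set after subtracting its gene value, called 1 of the 30, Gpr85 5217176, against 0.00869% of all (0.0046% higher and 0.00409% lower). At gene level 1 of 4 passed, Gpr26, against 0.116% of all genes (0.054% higher and 0.0617% lower). The groups did not overlap in that gene alone of the 4, against 3.65% of all genes (1.68% higher and 1.97% lower). Since these differences chose the genes, nothing is read from the shares.

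**Figure D5:**
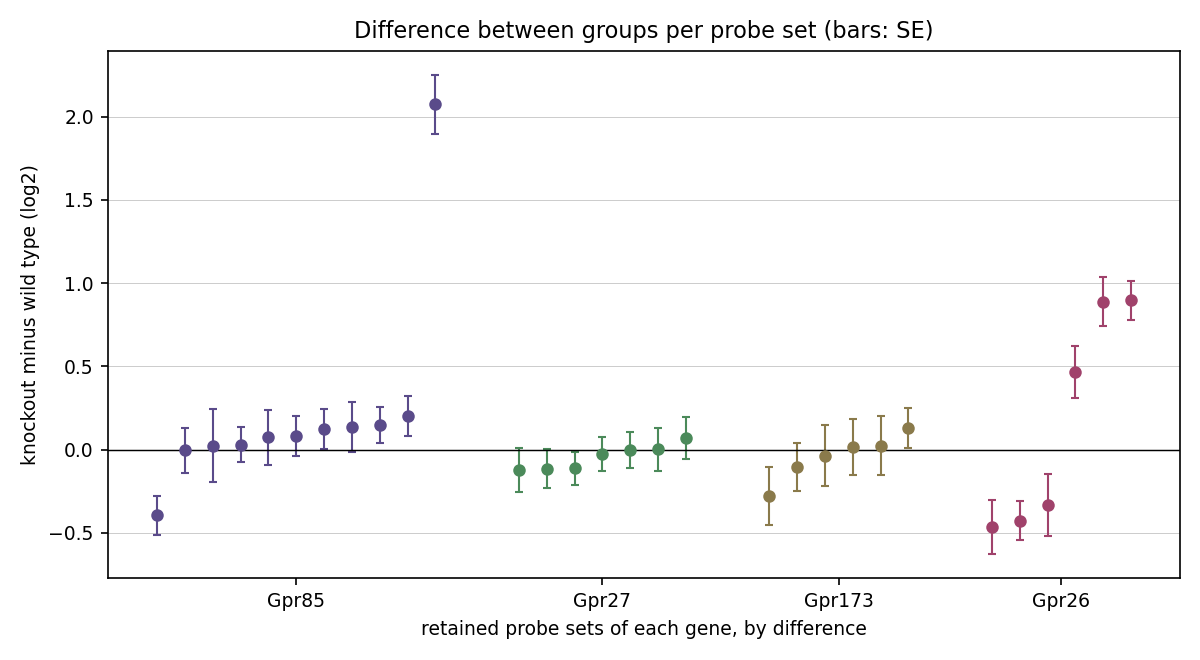
Difference between group means (knockout minus wild type, log2, vertical axis) with its SE for the 30 retained probe sets, grouped by gene and ordered by size. Gpr27 and Gpr173 stay between -0.28 and 0.13, Gpr85 has 1 probe set at 2.07 and 1 at -0.39, and Gpr26 splits into 3 above and 3 below 0.

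All 6 pairs of receptors had positive correlations across embryos, some of them no higher than many other genes reached. With the mean of each group subtracted, the correlation of gene values over the 8 arrays was 0.80 for Gpr85 with Gpr26 and 0.76 for Gpr85 with Gpr173. The lowest was 0.54, for Gpr27 with Gpr26. The arrays share their RMA normalization. Of all genes, 7.26% were more like Gpr85 than Gpr26 was, 11.5% more than Gpr173 and 28.5% more than Gpr27, and 28.2% were more like Gpr27 than Gpr26 was. Ranked over the 12960 genes in this way, the most similar to Gpr85 were Fcrls, a microglial Fc receptor-like gene (0.99), Mdh1, the cytosolic malate dehydrogenase (0.99), and Spag6, a protein of the ciliary axoneme (0.99). For Gpr27 they were Trip13 (0.98), Anp32e, a histone chaperone (0.97), and the TGF-beta receptor gene Tgfbr1 (0.97). For Gpr173 they were the phosphatase gene Ptp4a2 (0.99), Gadd45a, a stress response gene (0.99), and Zbtb8a (0.98). For Gpr26 they were Lamtor2, a lysosomal scaffold gene (0.99), Lynx1, a modulator of nicotinic receptors (0.99), and the cathepsin gene Ctso (0.99). With 8 arrays and this many genes, values near 1 turn up for any profile. The Gpr27 gene value was that of probe set 4847411 on every array. All correlations of Gpr27 here therefore describe this single probe set.

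Within a gene, probe sets of Gpr85 followed each other most closely, with a median correlation of 0.59 over 55 pairs after the group means were subtracted. The median was 0.35 in Gpr173 (15 pairs), 0.28 in Gpr26 (15 pairs) and 0.14 in Gpr27 (21 pairs). In Gpr26 the median was 0.37 within the higher side, 0.18 within the lower side and 0.28 between the sides.

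Other receptors listed as orphan were compared to set these 4 beside their class. The list is wider than the definition above, since it also held the R-spondin receptor Lgr6 and its relatives Lgr4 (-0.12) and Lgr5 (-0.20). Of 55 listed, 50 had a probe set and 22 had enough retained probe sets to be tested. None passed the limma test over all genes, against 0.116% of all genes, and 3 were lower and 0 higher at an unadjusted p under 0.05, a limit that 6.49% of all genes passed (3.79% lower and 2.70% higher). Gpr153 was lower in every knockout array, at 8.15 ± 0.20 and 7.81 ± 0.12 (SD, n = 4 each; difference -0.35, SE 0.11, limma adjusted p = 0.53), and differed by -0.20 without both wild type 3 and knockout 3. Gpr17, a receptor of oligodendrocyte precursors, differed by -0.37 (SE 0.13, adjusted p = 0.59), and by -0.24 without wild type 1. Lgr6, a receptor for R-spondins, differed by -0.23 and by 0.0082 with no filter, and Gpr21 by 0.19 and by 0.033 at the 75th percentile filter. Gpr12, a receptor with high basal cyclic AMP signalling, differed by -0.063 and Gpr161, a ciliary regulator of Hedgehog signalling, by -0.042. The median of the 22 was -0.052, against 0.0027 over all genes, and 9 were higher and 13 lower.

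The transduction machinery downstream showed no called change either. Of 54 G protein, adenylyl cyclase and phosphodiesterase pathway genes tested, 0 passed the limma test over all genes. At an unadjusted limma p under 0.05, 6 were lower and 1 higher. Of all genes, 3.79% were lower and 2.70% higher at that limit, 6.49% in either direction. Gng4, a G protein gamma subunit, was at 9.70 ± 0.07 and 9.25 ± 0.23 (difference -0.45, SE 0.11, limma adjusted p = 0.23). Gnal, the stimulatory alpha subunit abundant in striatum, differed by -0.27, and the phosphodiesterases Pde7b and Pde8b by -0.37 and -0.29. Pde8b differed by -0.014 at the 75th percentile filter. Gng4, Gnal and Pde7b, 3 of the 54, did not overlap between the groups, against 3.65% of all genes. The list median was -0.027 and turned to 0.026 without wild type 1. Gnal lies in the same direction as 14 of the 19 markers for striatum, hippocampus or thalamus above, whose part in it was not tested. The other 5 markers were higher. Of the 54 listed genes, 30 were lower and 24 higher in knockout cortex.

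Among 34 tested receptor kinases, arrestins, RGS proteins and other receptor regulators, 0 passed the limma test over all genes. At an unadjusted limma p under 0.05, 1 was higher and 1 lower, against 2.70% and 3.79% of all genes (6.49% in either direction). Arrdc2, an arrestin domain protein, differed by 0.33 (SE 0.11, limma adjusted p = 0.55) and by -0.036 with the filter at the 75th percentile. Rgs4, which speeds GTP hydrolysis on G protein alpha subunits, differed by -0.32, Arrb1, a beta-arrestin, by -0.20 and Rgs2 by -0.39. Rgs2 was lowest in knockout 3 (8.65) and differed by -0.16 without it, by -0.62 without knockout 4 and by -0.14 at the 75th percentile filter. The list median was -0.0050, and its sign turned in 5 of the 8 fits with 1 array left out.

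The nearest tested gene on each side of every receptor was compared, which in the RefSeq gene order was 1 to 15 genes away. Around Gpr85, Bmt2 differed by 0.027 and Foxp2 by -0.092, and around Gpr26, Bub3 differed by 0.013 and Cpxm2 by 0.091. Around Gpr173, Tspyl2 differed by 0.15 and Shroom2 by 0.028. Around Gpr27, the transcription factor gene Foxp1 differed by -0.24 without overlap and Rybp by -0.35. Rybp differed by -0.033 as a mean of its probe sets and by -0.22 without knockout 3. Foxp2 differed by -0.020 without knockout 3, and Cpxm2 by 0.026 without knockout 1 and by 0.16 without knockout 2. None of these 8 neighbours passed the limma test, with adjusted p between 0.69 and 0.99.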

How the data were processed

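RNA was measured on 8 exon arrays, 4 per genotype. Per the submitters' processing notes, the deposited table of log2 signals involved Affymetrix Expression Console, RMA and the build mm9; the sources used here give no versions or roles. RMA adjusts background and equalizes array distributions, so it compresses low signals. Of 625534 probe sets, 303629 had exactly 1 symbol in the platform annotation, and older symbols were updated through RefSeq synonyms (GRCm38.p6), used for names and gene order only. Probe sets with a mean of at least 6.84 were retained, and genes with at least 4 retained probe sets were tested (12960), with the median as gene value. lmFit, eBayes and diffSplice of limma 3.58.1 (R 4.3.3) were fitted over all genes or probe sets without covariates, with Benjamini-Hochberg adjustment at 0.05. The code was also run on simulated arrays with independent noise per probe set. Unlike the real ones, these held no arrays that stood apart and no probe sets that varied together. Ptbp2 was left out of diffSplice and the splicing index. The receptors, lists and alternatives were chosen with earlier results of these data known. Besides the receptors, named genes are up to 4 list members with the smallest p, the neighbouring and overlapping genes, and the 3 most correlated genes per receptor; Gpr12, Gpr161, Neurod6, Lemd1 and the 2-sided genes of the closing section were added later. List genes without a probe set here were not analysed. The labels state that samples are biological replicates.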

Additional observations from a re-analysis of the deposited data

Results flagged for a closer look

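Within groups of 4 arrays, 7 of 74 groups of receptor values held an array far from the other 3, and chance gives about 1 in 20. In Gpr85, knockout 1 was high in the gene value (10.17, the others 9.94 to 9.97), in probe set 5393598 (10.17, the others 9.94 to 9.97) and in probe set 4643369 (10.10, the others 9.89 to 9.91). The gene value of knockout 1 is that of 5393598, so these are not separate. In Gpr27, knockout 2 was low in probe set 4793917 (8.27, the others 8.46 to 8.49) and wild type 2 was low in 4982210 (8.40, the others 8.57 to 8.60). In Gpr173, wild type 1 was high in probe set 5354052 (9.39, the others 8.78 to 8.84). In Gpr26, the higher minus the lower probe sets were largest among wild type arrays in wild type 2 (0.81, the others 0.42 to 0.48), still below every knockout array.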

How the results depend on the processing

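The relative difference of Gpr85 5217176 and the gene values of Gpr85, Gpr27 and Gpr173 moved by less than 1 replicate SD under every alternative run. The Gpr26 difference was 0.065 under the 75th percentile filter and 0.17 as a mean. Left out in turn, probe sets 4390610 and 4577739 gave 0.78 each, 4978800 and 5596780 0.46 each, 4449558 0.40 and 5607789 0.84, since a median of few opposed values depends on its middle ones. The number of called probe sets of the 4 genes was 1 with no filter, with the replicate block and without wild type 3 and knockout 3, 3 at the 75th percentile filter, with the Xist covariate, with array weights and with trend and robust, and 1 to 2 with 1 array left out. It was 1 without wild type 2, 3 or 4 and without knockout 1 or 4. The total over all probe sets moved as well, between 107 and 1183 as given below, so nothing is read from these counts. The number of genes changed, 15 in the report's setting, was 7 with no filter, 25 at the 75th percentile, 24 under quantile normalization, 71 with array weights, 37 with the mean, 5 with a minimum of 1 probe set, 9 without wild type 3 and knockout 3, and 7 to 15 with 1 array left out. The number of probe sets changed (288) was 152 with no filter, 187 with the replicate block, 1183 with array weights, 461 with trend and robust, 107 without wild type 3 and knockout 3, and 132 to 285 with 1 array left out. The number with differential usage (414) was 17 by the splicing index, 889 with no filter, 139 at the 75th percentile, 2084 with array weights, 247 without wild type 3 and knockout 3, and 159 to 856 with 1 array left out. The cause was not tested. Leaving out wild type 3 and knockout 3 together, leaving out probe sets, and the marker lists without single arrays were added after the data were seen. Small differences changed sign in Lgr6 (0.0082 with no filter), Arrdc2 (-0.036) and Eif4e3 (0.050) at the 75th percentile, Bmt2 (-0.00055 with array weights; -0.044 to 0.081 with 1 array left out), Bub3 (-0.017 with no filter, -0.035 with array weights; -0.045 to 0.069) and Shroom2 (-0.010 with no filter, -0.19 at the 75th percentile, -0.0065 under cyclic loess, -0.015 with array weights, -0.0090 with the mean, -0.024 without wild type 3 and knockout 3; -0.0063 to 0.069). The orphan receptor, G protein and regulator lists had 0 called genes under every alternative. The labels state no pairing of equal replicate numbers, and deviations of same-numbered arrays correlated at 0.25, -0.0039, 0.033 and 0.17, so the numbers were not taken as pairs.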

Other observations

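Probe sets that moved both ways within a gene were looked for across the table after they had been seen in Gpr26. Of the genes tested, 13 had at least 2 retained probe sets higher and at least 2 lower in knockout cortex without overlap between groups. Map4, a microtubule-associated protein, had 2 higher and 19 lower of 33, Masp1, a complement protease, 4 and 4 of 17, and Ncam1, the neural cell adhesion molecule, 7 and 3 of 42. Klc1, a kinesin light chain, had 2 and 6 of 23, Tbcd, a tubulin folding cofactor, 2 and 6 of 46, Dbn1, the actin binder drebrin, 2 and 2 of 26, and the noncoding gene Mir100hg 4 and 2 of 20. The others were Bptf, Canx, Lemd1, Ncor1 and Ptpn23, each with 2 or 3 on either side, and Gpr26. Genes with more probe sets have more chances to meet the criterion, and the pattern was not tested.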
